A study of Mus musculus with 6 samples.

Results

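Cyclin-dependent kinase (CDK) inhibitors stop the cell cycle by binding the kinases that drive it. The 7 genes described here are the CIP/KIP genes Cdkn1a, Cdkn1b and Cdkn1c and the INK4 genes Cdkn2a, Cdkn2b, Cdkn2c and Cdkn2d, chosen by symbol as the complete mouse set of both families, out of 22800 symbols in the expression tables. RNA was sequenced from 6 libraries of murine oviductal epithelial (MOE) cells, 3 passages of MOELOW (8, 9 and 10) and 3 passages of MOEHIGH (90, 103 and 113). MOELOW cells were early passages of a line established from primary cells of female outbred CD1 mice, 8 weeks old. No transgene, drug or viral oncogene was named in the labels, and MOEHIGH cells came from serial passaging of MOELOW. The cells were 1 line pooled from several oviducts, so the passages of a group are samples of the same line taken at different times, and a p-value here measures the spread between those passages, not between animals. The comparison asks how the RNA of the inhibitors differs between the early line and its late passages.

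CIP/KIP proteins bind many cyclin and CDK pairs and are best known for blocking CDK2 with cyclin E or A at the start of DNA replication. Cdkn1a (p21) is the classical target of the tumor suppressor p53, Cdkn1b (p27) accumulates in resting cells and is destroyed after tagging by the ubiquitin ligase subunit Skp2, and Cdkn1c (p57) is an imprinted gene expressed mostly from the maternal allele. INK4 proteins bind CDK4 and CDK6 alone and keep the D cyclins away from them, which leaves the retinoblastoma protein Rb active on E2F factors. Cdkn2a also encodes, from a separate first exon and in another reading frame, p19Arf, which restrains the p53 inhibitor Mdm2, and the locus is known for rising in cultured mouse cells as they are passaged.

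The promoters of the 3 genes that passed the test between the groups are printed as RefSeq gives them for GRCm38.p6, the build called mm10, because a gene-level value adds up all the start sites of a gene. The table of RefSeq promoters held 6 of the 7 inhibitor genes, with 9 start sites among them. Each window is the 250 bases before a start, and capitals mark the matches of the 7 motifs searched on both strands, which were the GC box (GGGCGG), the CCAAT box (CCAAT), the TATA box (TATAAA), the E-box CACGTG, the E2F motif (TTTGGCGC or TTTCCCGC), the forkhead motif (TGTTTAC) and the p53 pair, made of the core motif CATG, 6 bases of any kind and CATG again. No match overlapped another in the windows shown.
Cdkn1a, upstream start, chr17:29090729-29090978, + strand: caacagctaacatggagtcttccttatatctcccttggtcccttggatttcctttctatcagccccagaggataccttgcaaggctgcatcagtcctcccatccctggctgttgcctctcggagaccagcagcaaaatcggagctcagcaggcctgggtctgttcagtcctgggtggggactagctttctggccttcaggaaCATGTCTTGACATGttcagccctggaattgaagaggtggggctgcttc
Cdkn1a, downstream start, chr17:29093519-29093768, + strand: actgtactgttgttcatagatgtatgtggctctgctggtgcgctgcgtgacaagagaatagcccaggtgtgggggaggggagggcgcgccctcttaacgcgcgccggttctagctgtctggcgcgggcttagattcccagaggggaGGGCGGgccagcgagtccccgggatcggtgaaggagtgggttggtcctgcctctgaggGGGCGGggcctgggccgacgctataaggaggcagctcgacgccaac
Cdkn1b, chr6:134920151-134920400, + strand: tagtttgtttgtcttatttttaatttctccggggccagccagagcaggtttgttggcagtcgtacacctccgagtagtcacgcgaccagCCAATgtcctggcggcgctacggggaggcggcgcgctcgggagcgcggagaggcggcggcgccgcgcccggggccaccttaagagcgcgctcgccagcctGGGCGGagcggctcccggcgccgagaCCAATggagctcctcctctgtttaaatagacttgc
Cdkn2a, distal start (p19Arf), chr4:89294620-89294869, - strand: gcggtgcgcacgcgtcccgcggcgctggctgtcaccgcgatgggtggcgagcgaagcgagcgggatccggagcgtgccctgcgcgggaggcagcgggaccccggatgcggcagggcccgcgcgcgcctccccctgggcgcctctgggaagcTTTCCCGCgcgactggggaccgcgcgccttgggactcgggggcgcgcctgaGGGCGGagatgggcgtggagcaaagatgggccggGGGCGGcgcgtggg
Cdkn2a, proximal start (p16Ink4a), chr4:89282193-89282442, - strand: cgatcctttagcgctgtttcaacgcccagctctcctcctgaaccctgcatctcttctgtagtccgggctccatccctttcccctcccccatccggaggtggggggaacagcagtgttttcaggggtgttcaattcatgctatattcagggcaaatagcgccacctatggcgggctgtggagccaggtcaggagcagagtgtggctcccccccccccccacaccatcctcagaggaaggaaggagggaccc

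The 2 start sites differed in base composition for both Cdkn1a and Cdkn2a. The upstream window of Cdkn1a held the p53 pair as CATGTCTTGACATG, whose first base lay 48 bases before the start, and 2 CpG dinucleotides in sequence that was 54.0% G and C. Its downstream window held 2 GC boxes and 19 CpG dinucleotides at 64.8% G and C. The p53 pair was found in 0.49% of the 32851 promoter windows of this length and the GC box in 32.7%. The Cdkn1b window held 1 GC box and 2 CCAAT boxes, the latter found in 33.8% of all windows, with 28 CpG dinucleotides at 64.4% G and C. The distal Cdkn2a window was 78.4% G and C with 40 CpG dinucleotides, 2 GC boxes and 1 E2F motif, a motif found in 1.3% of all windows. The proximal Cdkn2a window held 7 CpG dinucleotides at 60.0% G and C and none of the 7 motifs. Matches are letters in a window, and no binding was measured. The TATA box, the E-box and the forkhead motif, at 12.4%, 6.02% and 3.17% of all windows, had no match in any of these 5.

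RNA levels are given in FPKM, fragments scaled to transcript length and to the number of mapped fragments, so levels of different genes can be compared per length. The test took the 11621 genes whose mean reached 0.5 FPKM. Of these, 24.3% were higher and 32.1% were lower in MOEHIGH by limma at a Benjamini-Hochberg adjusted p under 0.05, so 56.4% of genes were called. Of the 7 inhibitor genes 6 were tested. Cdkn2a was higher, Cdkn1a and Cdkn1b were lower, and Cdkn2b, Cdkn2c and Cdkn2d did not pass. The share called, 3 of 6, was near that of all genes. The groups did not overlap for those 3 genes, as for 64.0% of tested genes in either direction. The median log2 fold change of the 6 was 0.17, beside -0.05 over all tested genes. A fold change is given on the scale of log2(FPKM + 1), as MOEHIGH over MOELOW, with its standard error and, for n = 3 passages a group, its 95% interval. Tested against a minimum change of 2-fold, which 10.4% of all genes passed, 0 of the 6 passed, while 3 passed with no minimum and 3 had an unadjusted p under 0.05.

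**Figure D1:**
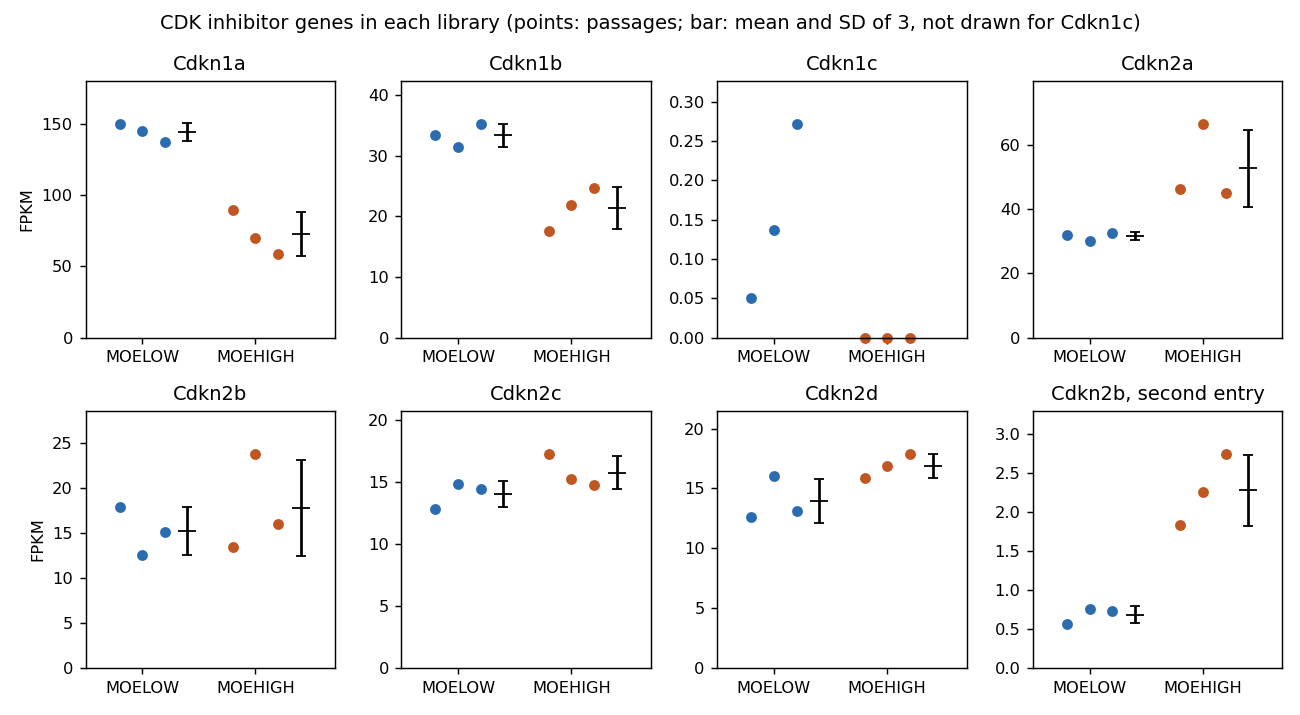
FPKM of the 7 CDK inhibitor genes in each library, with a panel for the second entry of Cdkn2b; points are passages 8, 9 and 10 of MOELOW (blue) and 90, 103 and 113 of MOEHIGH (orange), and bars are the mean and SD of 3, not drawn for Cdkn1c. Cdkn1a and Cdkn1b lay lower and Cdkn2a higher in every MOEHIGH library, the main entry of Cdkn2b, Cdkn2c and Cdkn2d overlapped, and Cdkn1c was listed at 0 in MOEHIGH.

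Of the CIP/KIP genes, Cdkn1a had the most RNA. It lies on chromosome 17 of mm10 from 29090976 to 29100727, on the plus strand, where the annotated gene AC167363.2 overlaps it on the other strand. It was at 149.9, 145.2 and 137.0 FPKM in passages 8, 9 and 10 of MOELOW and at 89.2, 69.7 and 58.5 FPKM in passages 90, 103 and 113 of MOEHIGH. All 3 MOEHIGH libraries lay below all 3 MOELOW libraries, as they did for 35.5% of tested genes. The means were 144.0 ± 6.52 FPKM and 72.5 ± 15.5 FPKM (SD, n = 3), so that the MOELOW mean was 1.99 times that of MOEHIGH. Cdkn1a fell by 1.0 on the log2 scale (standard error 0.15, 95% interval -1.36 to -0.64, limma adjusted p = 0.000943). It stayed an abundant transcript in MOEHIGH, above 89.0% of tested genes against 94.2% in MOELOW. In these bulk samples, fewer cells of a type and less RNA per cell cannot be told apart, here or for the genes that follow.

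Cdkn1b, on chromosome 6 from 134920401 to 134925513, was at 33.4, 31.3 and 35.2 FPKM in MOELOW passages 8, 9 and 10 and at 17.6, 21.9 and 24.6 FPKM in MOEHIGH passages 90, 103 and 113. The groups did not overlap. The mean was 33.3 ± 1.95 FPKM in MOELOW and 21.4 ± 3.54 FPKM in MOEHIGH (SD, n = 3), a level 1.56 times as high in MOELOW. Cdkn1b fell by 0.63 on the log2 scale (standard error 0.13, 95% interval -0.94 to -0.32, limma adjusted p = 0.00487). Within MOEHIGH the libraries ranked in opposite order for both genes, with passage 90 highest for Cdkn1a and lowest for Cdkn1b, which is a description of 3 libraries.

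Cdkn1c, on chromosome 7 from 143458339 to 143461050 within the imprinted domain, was close to 0 throughout. It was at 0.0503, 0.136 and 0.272 FPKM in passages 8, 9 and 10 and was listed at 0 in all 3 MOEHIGH libraries. Its mean stayed under the minimum of 0.5 FPKM, so it was not tested in the comparison. The annotated antisense gene Gm44732 overlaps it, and the counting was not stated to use strand. In a fit with no minimum, where 45.0% of 16525 genes were called, its log2 fold change was -0.20 (limma adjusted p = 0.0494).

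Of the INK4 genes, Cdkn2a had the most RNA and was the only gene called higher when the main entry of Cdkn2b was used. It lies on the minus strand of chromosome 4 from 89274471 to 89294653, and gene-level FPKM does not separate p16Ink4a from p19Arf. It was at 32.1, 30.1 and 32.4 FPKM in passages 8, 9 and 10 and at 46.3, 66.5 and 45.2 FPKM in passages 90, 103 and 113. Every MOEHIGH library lay above every MOELOW library, as for 28.5% of tested genes, and passage 103 stood highest. The mean went from 31.5 ± 1.28 FPKM to 52.7 ± 12.0 FPKM (SD, n = 3), 1.67 times as high in MOEHIGH. The log2 fold change was 0.70 (standard error 0.16, 95% interval 0.34 to 1.06, limma adjusted p = 0.00579), and it was 0.52 without passage 103, still past the threshold. By western blot the paper reports a loss of p16Ink4a protein in MOEHIGH, and no protein was measured here.

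Cdkn2b (p15Ink4b), the partner of Cdkn2a on chromosome 4 from 89306299 to 89311039, is known as a target of TGF-beta signalling. It was at 17.9, 12.6 and 15.1 FPKM in passages 8, 9 and 10 and at 13.5, 23.8 and 16.01 FPKM in passages 90, 103 and 113. The groups overlapped, and again passage 103 was the highest library. The means were 15.2 ± 2.65 FPKM and 17.8 ± 5.36 FPKM (SD, n = 3), and the log2 fold change was 0.19 (standard error 0.21, 95% interval -0.30 to 0.68, limma adjusted p = 0.479). Without passage 103 it was -0.03. The interval allowed a rise of up to 0.68, so the groups were not shown to be equal.

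The tables held 2 entries named Cdkn2b, without coordinates for either. The second entry, which stands between Mtap and Dmrta1 in the tables, was at 0.564, 0.763 and 0.731 FPKM in MOELOW passages 8, 9 and 10 and at 1.84, 2.26 and 2.75 FPKM in MOEHIGH passages 90, 103 and 113. Its groups did not overlap. Put in place of the first entry in the fit, in which 24.3% of genes were called higher, its log2 fold change was 0.95 (standard error 0.13, limma adjusted p = 0.000553). Which transcripts either entry covers is not given in the sources used here, so the 2 entries of 1 symbol gave different calls. The second held 0.686 ± 0.107 FPKM in MOELOW and 2.28 ± 0.456 FPKM in MOEHIGH (SD, n = 3), a small part of the level of the first.

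Cdkn2c (p18Ink4c), on chromosome 4 from 109660876 to 109667189, did not pass the test. It was at 12.8, 14.8 and 14.5 FPKM in passages 8, 9 and 10 and at 17.3, 15.2 and 14.7 FPKM in passages 90, 103 and 113. The groups overlapped, at 14.04 ± 1.09 FPKM and 15.7 ± 1.34 FPKM (SD, n = 3). The log2 fold change was 0.15 (standard error 0.11, 95% interval -0.10 to 0.41, limma adjusted p = 0.266).

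Cdkn2d (p19Ink4d), on chromosome 9 from 21288410 to 21291407, was at 12.6, 16.03 and 13.1 FPKM in passages 8, 9 and 10 and at 15.8, 16.9 and 17.9 FPKM in passages 90, 103 and 113. The groups overlapped only through passage 9 and passage 90. The means were 13.9 ± 1.83 FPKM and 16.9 ± 1.02 FPKM (SD, n = 3), and the log2 fold change was 0.26 (standard error 0.12, 95% interval -0.01 to 0.54, limma adjusted p = 0.0941). After quantile normalization of the libraries it was 0.35 and passed (limma adjusted p = 0.0375).

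**Figure D2:**
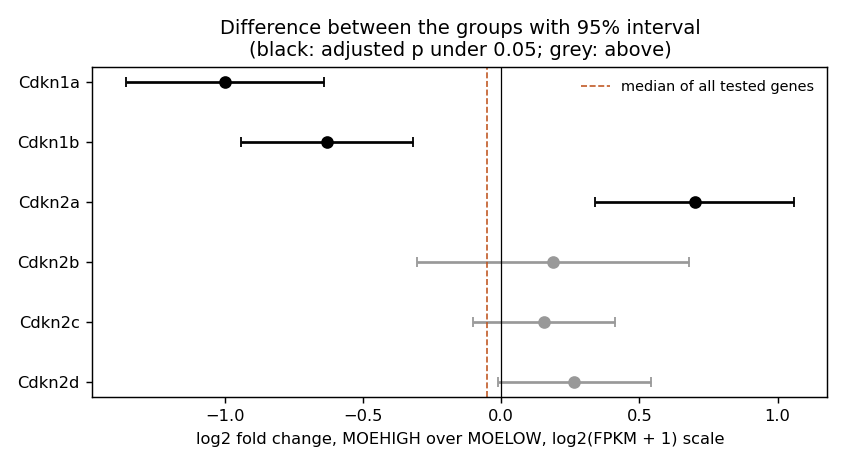
Log2 fold change of the 6 tested inhibitor genes, MOEHIGH over MOELOW on the log2(FPKM + 1) scale, with 95% intervals from limma; black points passed an adjusted p of 0.05 and grey ones did not, and the dashed line is the median of all tested genes. Cdkn1a (-1.0) and Cdkn1b (-0.63) lie to the left of 0, Cdkn2a (0.70) to the right, and the intervals of the other 3 cross 0.

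The order of the levels changed between the groups. In MOELOW, Cdkn1a stood first, with no overlap with the next gene, and Cdkn1b and Cdkn2a came next with overlapping values. Cdkn2b, Cdkn2c and Cdkn2d followed as neighbours with overlapping values, and Cdkn1c was last. In MOEHIGH, Cdkn2a came second to Cdkn1a, and their ranges overlapped, since the lowest Cdkn1a library was at 58.5 FPKM and the highest Cdkn2a library at 66.5 FPKM. The ranges of Cdkn1b and Cdkn2b overlapped next, and Cdkn2b, Cdkn2d and Cdkn2c again overlapped as neighbours in that order. The ratio of Cdkn2a to Cdkn1a RNA was 0.219 ± 0.0155 in MOELOW and 0.748 ± 0.219 in MOEHIGH (SD, n = 3).

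Added up, CIP/KIP RNA was lower and INK4 RNA higher in every MOEHIGH library than in any MOELOW library, which is a description with no test of the sums. The summed CIP/KIP level was 183.3, 176.6 and 172.5 FPKM in passages 8, 9 and 10 and 106.8, 91.7 and 83.1 FPKM in passages 90, 103 and 113. The summed INK4 level was 75.4, 73.5 and 75.1 FPKM in MOELOW and 92.9, 122.4 and 93.8 FPKM in MOEHIGH. Passage 103 was the highest library for INK4, and the difference of the group means, 28.3 FPKM with all libraries, was 18.7 FPKM without it. The 7 genes together went from 252 ± 5.84 FPKM to 197 ± 18.7 FPKM (SD, n = 3). INK4 genes held 29.6% ± 0.628 of this sum in MOELOW and 52.2% ± 5.38 in MOEHIGH. Cdkn1a alone held 57.1% ± 1.53 in MOELOW and 36.8% ± 6.85 in MOEHIGH, and Cdkn2a 12.5% ± 0.549 and 26.6% ± 4.06. These sums are of RNA and weigh no protein, and Cdkn2a adds p19Arf transcripts, which encode no CDK inhibitor, to the INK4 sum.

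**Figure D3:**
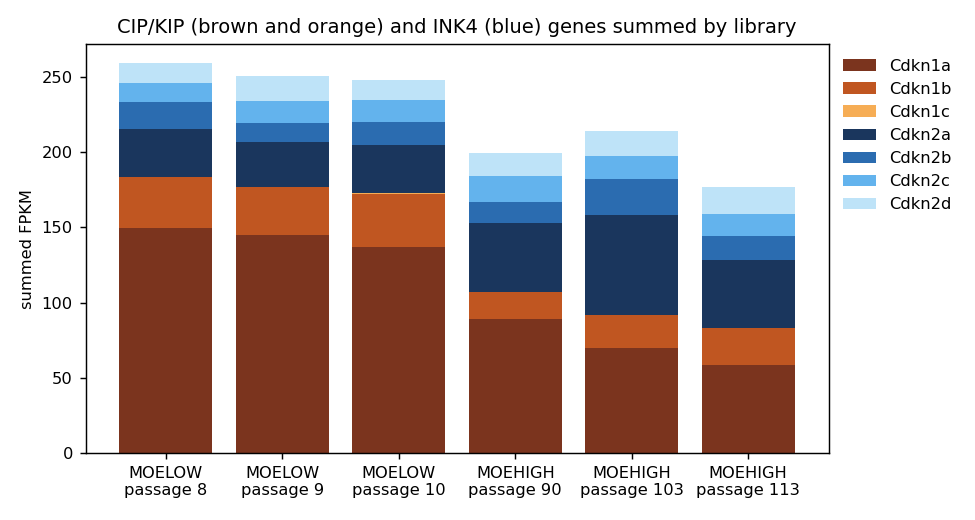
Summed FPKM of the 7 inhibitor genes in each library, with CIP/KIP genes in brown and orange and INK4 genes in blue. The brown and orange part reaches between 172.5 and 183.3 FPKM in MOELOW and between 83.1 and 106.8 FPKM in MOEHIGH, and the blue part between 73.5 and 75.4 FPKM and between 92.9 and 122.4 FPKM.

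The partners of the inhibitors were measured in the same libraries. Cdk4 and Cdk6, the kinases that INK4 proteins bind, summed to 355 ± 24.6 FPKM in MOELOW and 535 ± 72.1 FPKM in MOEHIGH (SD, n = 3). INK4 RNA per 100 FPKM of Cdk4 and Cdk6 was 21.1 ± 1.71 FPKM in MOELOW and 19.4 ± 3.51 FPKM in MOEHIGH, a difference smaller than the SD of either group. CIP/KIP RNA per unit of Cdk2 RNA was 8.89 ± 0.825 in MOELOW and 3.93 ± 0.744 in MOEHIGH, and those groups did not overlap. The 3 D cyclin genes summed to 285 ± 13.1 FPKM and 298 ± 40.4 FPKM, with overlapping libraries.

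The spread between passages was wider in MOEHIGH for most of the inhibitor genes. Over all 11621 tested genes, the median coefficient of variation was 8.47% in MOELOW and 16.3% in MOEHIGH, so a wider spread was general. Passages 90, 103 and 113 also lie farther apart in number than passages 8, 9 and 10. In MOEHIGH the coefficient was 30.2% for Cdkn2b, 22.8% for Cdkn2a, 21.4% for Cdkn1a and 16.6% for Cdkn1b. It was 8.52% for Cdkn2c and 6.06% for Cdkn2d. In MOELOW it was 17.5%, 4.05%, 4.53%, 5.86%, 7.74% and 13.2% for these genes in the same order.

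The genes with the profile most like each inhibitor were found by the root mean square distance of centred log2(FPKM + 1) over the 6 libraries. For Cdkn1a these were Tmem150a (0.0418), the actinin gene Actn4 (0.0472) and the class I histocompatibility gene H2-T22 (0.0592), where Actn4 was at 457 ± 42.9 FPKM in MOELOW and 236 ± 54.3 FPKM in MOEHIGH (SD, n = 3). For Cdkn1b they were Hip1, Ssbp3 and Srpk2, at distances of 0.0456 to 0.0543. For Cdkn2a they were Setd1a (0.0635), which encodes a histone methyltransferase, Arrdc1 (0.0851) and Sfswap (0.0866). The nearest genes to Cdkn2b, Mnt, BC096441 and Galns, lay farther off at 0.131 to 0.137, and those to Cdkn2c, Smarcd2, Pttg1 and Acap3, at 0.0399 to 0.0414. Gfm2, Vdac3 and Pnpt1 lay nearest to Cdkn2d, at 0.0551 to 0.0654. For Cdkn1c, Zfp943, Fkbpl and Gramd1a came nearest, a distance set by values of Cdkn1c near 0. The distance takes in both the step between the groups and the pattern of passages within them. Mnt, BC096441 and Galns had log2 fold changes of 0.20, 0.07 and 0.01, and each was highest in passage 103, as Cdkn2b was.

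Cyclins and kinases of G1 and S phase, the targets of the inhibitors, were 5 of 13 tested genes higher, 2 lower and 6 not past the test, with a median log2 fold change of 0.25. For this list and those that follow, the background over all tested genes was 24.3% higher, 32.1% lower and a median of -0.05. The D cyclins moved in opposite directions. Ccnd1 rose from 64.2 ± 14.8 to 213 ± 30.5 FPKM (log2 fold change 1.73, limma adjusted p = 0.000159). Ccnd2 fell from 135 ± 5.52 to 41.6 ± 13.9 FPKM and Ccnd3 from 85.1 ± 5.35 to 43.2 ± 5.56 FPKM (log2 fold changes -1.72 and -0.97, limma adjusted p = 0.000229 and 0.000284). The INK4 target Cdk4 rose from 342 ± 25.2 to 520 ± 76.3 FPKM (0.59, limma adjusted p = 0.00761), while Cdk6 was at 13.1 ± 1.32 and 14.9 ± 4.24 FPKM and did not pass. Cdc25a, the phosphatase that activates CDK2, rose from 12.6 ± 0.905 to 20.2 ± 0.6004 FPKM, and Ccne2 from 5.38 ± 0.621 to 10.2 ± 4.31 FPKM. Cdk2 itself, at 20.1 ± 1.36 and 24.1 ± 1.89 FPKM, and Ccne1, at 20.2 ± 2.08 and 26.9 ± 5.46 FPKM, did not pass (limma adjusted p = 0.0729 and 0.0829). Scaled to equal summed FPKM, 3 of the 13 were higher.

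Among the retinoblastoma and E2F genes, which act below the INK4 proteins, 7 of 13 were higher and 1 lower, with 5 not past the test and a median of 0.37. Rb1 was at 9.16 FPKM in MOELOW and 7.75 FPKM in MOEHIGH on average and did not pass. Rbl1 (p107) rose from 9.60 ± 0.149 to 19.9 ± 4.54 FPKM and E2f4, an E2F that works with Rbl1 as a repressor, from 33.5 ± 1.502 to 87.6 ± 8.03 FPKM. E2f8 and E2f7, repressors that are themselves E2F targets, rose by 1.90 and 0.80 on the log2 scale, from 7.18 ± 0.268 to 29.5 ± 3.23 FPKM for E2f8. E2f1 rose by 0.37 (limma adjusted p = 0.0436), and E2f6, a repressor that does not bind Rb, fell from 18.97 ± 2.03 to 12.1 ± 0.776 FPKM. Without passage 113, 2 genes of this list were lower.

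Genes for the turnover and binding of CIP/KIP proteins were 4 of 17 higher, 1 lower and 12 not past the test, with a median of 0.09. Skp2 rose from 9.13, 12.2 and 11.2 FPKM in passages 8, 9 and 10 to 20.2, 21.3 and 29.7 FPKM in passages 90, 103 and 113 (log2 fold change 1.05, standard error 0.17, limma adjusted p = 0.00117). Its groups did not overlap. Cks1b, the cofactor with which Skp2 recognizes p27, was at 230 and 241 FPKM on average and did not pass. Pcna, the replication clamp that p21 binds, rose from 194 ± 15.0 to 492 ± 22.1 FPKM, and Dtl, which targets p21 on that clamp, from 7.77 ± 0.569 to 14.3 ± 2.68 FPKM. Ccnf rose from 16.8 ± 4.07 to 33.8 ± 2.56 FPKM, and Fbxw7, which destroys cyclin E, fell from 5.88 ± 0.5001 to 4.17 ± 0.0606 FPKM. The count of lower genes was 0 without passage 8 or after quantile normalization and 2 without passage 113.

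In the list of p53 and its targets, which includes genes besides Cdkn1a that p53 is known to induce, 10 of 23 tested genes were lower and 1 higher, with 12 not past the test and a median of -0.34. The gene that rose was Trp53 itself, from 83.5, 86.9 and 80.5 FPKM in passages 8, 9 and 10 to 122.2, 115.5 and 114.1 FPKM in passages 90, 103 and 113 (log2 fold change 0.48, standard error 0.09, limma adjusted p = 0.00266). Mdm2, which is both a target and an inhibitor of p53, was at 58.1 ± 2.504 and 51.9 ± 5.51 FPKM and did not pass (limma adjusted p = 0.225). Thbs1, which encodes the matrix protein thrombospondin, fell from 289 ± 162 to 16.8 ± 5.47 FPKM and had its highest value, 473.7 FPKM, in passage 8. Btg2, an antiproliferative gene, fell from 35.6 ± 3.52 to 4.83 ± 0.283 FPKM, the death receptor gene Fas from 9.75 ± 0.680 to 3.22 ± 0.800 FPKM, and the stress gene Gadd45a from 35.6 ± 15.0 to 13.0 ± 2.19 FPKM. Without passage 113, 2 genes of the list were higher.

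Genes that act on CIP/KIP genes and Cdkn2b, namely TGF-beta, SMAD, FoxO and KLF genes with Sp1, Zbtb17 and Myc, were 9 of 19 lower, 1 higher and 9 not past the test, with a median of -0.22. The list is not one of inducers alone, since Smad7, among the 9 lower genes, encodes an inhibitory SMAD and Myc is known as a repressor. TGF-beta ligands are known to raise Cdkn2b and Cdkn1a. Tgfb2 fell from 21.3 ± 3.71 to 0.306 ± 0.221 FPKM, Tgfb3 from 40.3 ± 3.58 to 4.50 ± 1.39 FPKM and Tgfb1 from 40.0 ± 2.22 to 13.3 ± 2.88 FPKM. Foxo1, a forkhead factor known to act on Cdkn1b, fell from 8.21 ± 1.57 to 2.85 ± 0.744 FPKM, whereas Foxo6, another member of that family, rose from 0.0615 ± 0.0534 to 25.3 ± 7.51 FPKM. Myc, known to repress Cdkn1a and Cdkn2b, was at 87.0 and 110 FPKM on average and did not pass. The count of higher genes was 2 without passage 113, with the replicate number as a block, with no variance trend, and under median ratio, upper quartile or quantile scaling.

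Repressors and activators of the Cdkn2a and Cdkn2b locus, most of them Polycomb genes, were 7 of 25 tested genes higher, 4 lower and 14 not past the test, with a median near 0 (-0.0013). Bmi1, the Polycomb repressor best known for silencing Cdkn2a, rose from 29.2 ± 2.16 to 41.5 ± 8.68 FPKM (log2 fold change 0.48, limma adjusted p = 0.0267), and Cbx2 and Suz12 rose by 0.69 and 0.53. The methyltransferase gene Ezh2, at 45.3 and 49.5 FPKM on average, did not pass. Ets1 and Ets2, activators of p16Ink4a, rose by 0.54 and 0.69, Ets2 from 14.9 ± 0.632 to 24.6 ± 2.67 FPKM. Cbx8 and Rnf2, also of Polycomb complexes, and the demethylase gene Kdm6b fell by 0.51, 0.54 and 0.41. These counts rested on single libraries, since 2 genes were higher without passage 8 and 3 without passage 9, while 1 was lower without passage 9 or 10 and 7 were lower without passage 113. Scaled to equal summed FPKM, 2 were higher, and after quantile normalization 1 was lower.

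**Figure D4:**
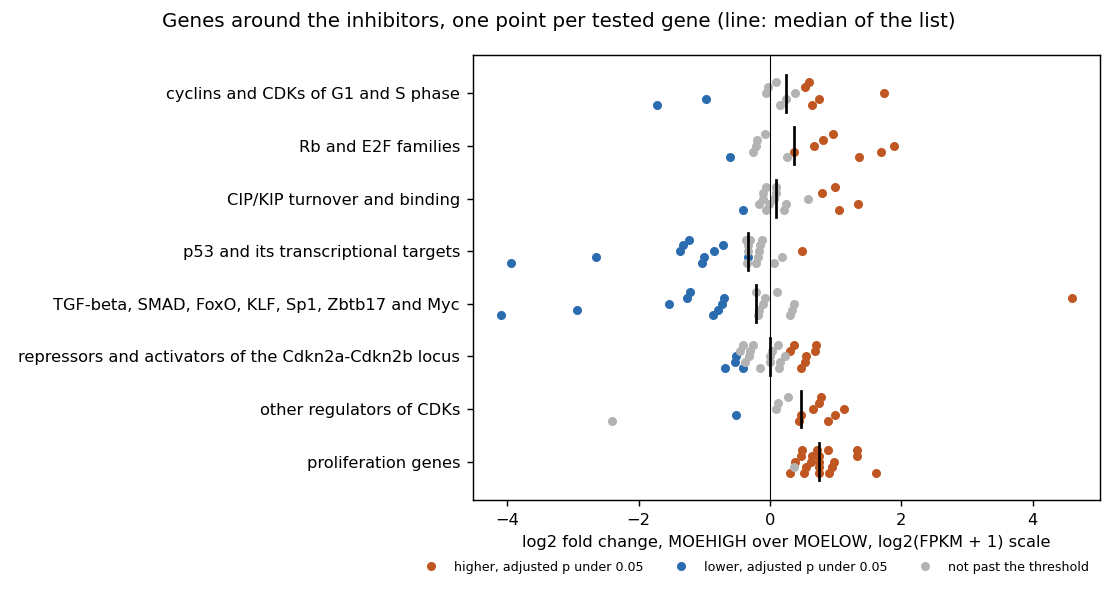
Log2 fold change, MOEHIGH over MOELOW on the log2(FPKM + 1) scale, of each tested gene in 8 lists around the CDK inhibitors; orange points were higher and blue points lower at an adjusted p under 0.05, grey points did not pass, and the black bar is the median of the list. Proliferation genes lie to the right of 0 (median 0.74), p53 targets and the TGF-beta and FoxO list mostly to the left (-0.34 and -0.22), and the grey point near -2.40 is Cdk2ap1, listed at 0 in passage 113.

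Of 13 other regulators of CDKs, 8 were higher and 1 lower, with 4 not past the test and a median of 0.47. Cdkn2aipnl, a relative of the p19Arf interactor gene Cdkn2aip, rose from 16.4 ± 1.74 to 37.2 ± 3.71 FPKM and Pkmyt1, an inhibitory kinase of CDK1, from 5.97 ± 0.144 to 12.9 ± 2.21 FPKM. Cables2 and Cdk2ap2 rose by 0.78 and 0.75, and Cdk5rap3 fell from 21.8 ± 0.597 to 15.0 ± 1.53 FPKM. Cdk2ap1 was between 181.0 and 220.4 FPKM in 5 libraries and listed at 0 in passage 113, and its values were not used further.

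Proliferation genes, a readout of cycling cells, were higher for 20 of 21, with a median of 0.74, and Tk1 alone did not pass. Mki67 rose from 33.7 ± 2.35 to 53.01 ± 5.26 FPKM (log2 fold change 0.63, limma adjusted p = 0.00174). The replication helicase genes Mcm5, Mcm3 and Mcm2 rose by 1.61, 1.33 and 0.98, and the spindle checkpoint gene Bub1b by 1.33, from 17.5 ± 1.16 to 45.5 ± 3.12 FPKM. Cdkn2a was thus higher in the same libraries in which these genes were higher, and Cdkn1a and Cdkn1b were lower in them.

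Neighbours on the chromosome were described for the INK4 pair and for Cdkn1c. Of 12 tested chromosome 4 neighbours of Cdkn2a and Cdkn2b, 4 were higher and 2 lower, with 6 not past the test and a median of 0.12. Mtap, the neighbour that is often lost together with this locus in human cancers, was at 66.5, 66.8 and 68.4 FPKM in passages 8, 9 and 10 and at 116.9, 117.0 and 127.5 FPKM in passages 90, 103 and 113 (log2 fold change 0.83, standard error 0.09, limma adjusted p = 0.000155). RNA of Mtap and gene-level RNA of Cdkn2a and Cdkn2b was present in every library. Gene copies were not measured, and p16Ink4a RNA was not separated from p19Arf RNA. Plin2, a lipid droplet gene, rose from 69.9 ± 4.20 to 168 ± 85.0 FPKM and Haus6 by 0.58, while Klhl9 fell from 16.3 ± 1.08 to 11.2 ± 2.63 FPKM. The other called neighbours, Tusc1 and Elavl2, had means under 5 FPKM. Tusc1 fell from 6.17 ± 0.933 to 0.407 ± 0.438 FPKM (log2 fold change -2.39), and Elavl2 rose from 0.0180 ± 0.0196 to 1.25 ± 0.759 FPKM (1.09). Dmrta1, listed next to the second Cdkn2b entry in the tables, was at or near 0 in every library. The count of lower neighbours was 1 when any of passages 8, 9, 10, 90 or 103 was left out and when libraries were scaled to equal summed FPKM.

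Around Cdkn1c, 7 of 18 genes of the imprinted region and its surroundings on chromosome 7 reached the minimum level, of which 1 was higher and 2 lower, with 4 not past the test. The tetraspanin gene Cd81 fell from 382 ± 19.6 to 184 ± 27.6 FPKM and Osbpl5 from 21.2 ± 1.55 to 13.9 ± 3.05 FPKM, and Cars, a tRNA ligase gene, rose from 50.9 ± 3.81 to 74.7 ± 14.2 FPKM. The count of higher genes was 0 without passage 9, 10 or 103. Kcnq1ot1, the noncoding RNA that silences this domain on the paternal chromosome, was at 0.124, 0.144 and 0.105 FPKM in MOELOW and at 0.340, 0.280 and 0.304 FPKM in MOEHIGH, under the minimum for a test. Phlda2, Igf2 and H19 were likewise untested, each below 1 FPKM in every library.

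Markers of other cell types differed between the same groups. The summed level of 7 smooth muscle markers, of which 6 were tested and all 6 were lower, was 7822 to 11253 FPKM in MOELOW and 70.5 to 108.1 FPKM in MOEHIGH, and Myh11, a defining one, was under 1 FPKM in every library. Of 7 fibroblast and stroma markers, 5 of 6 tested were lower, and the sum was 592 to 981 FPKM in MOELOW and 22.4 to 32.7 FPKM in MOEHIGH. The 4 mesothelium markers summed to 69.1 to 80.5 FPKM and 242 to 328 FPKM, with 2 of 3 tested higher and 1 lower. The 8 oviductal secretory markers summed to 882 to 912 FPKM and 1510 to 2436 FPKM, of which 2 of 5 tested were higher and none lower. The keratin gene Krt18 made up most of that sum, at 798 ± 25.3 FPKM in MOELOW and 2029 ± 531 FPKM in MOEHIGH, while Pax8, Ovgp1 and Krt8 did not pass the test. Epcam, Cdh1 and Sox17, also on this list, were below 0.5 FPKM in every library of these cells labelled epithelial. Krt8 was at 47.1 ± 7.40 FPKM in MOELOW and 40.6 ± 16.5 FPKM in MOEHIGH. Ciliated cell markers summed to 4.99 to 7.40 and 5.60 to 6.23 FPKM, with 1 of 4 tested higher and 1 lower. Foxj1 rose from 0.439 ± 0.0963 to 2.79 ± 0.638 FPKM, while Rsph1 was at 2.58 ± 1.02 FPKM in MOELOW and listed at 0 in MOEHIGH. Endothelial markers summed to at most 3.68 FPKM in MOELOW and 0.00998 FPKM in MOEHIGH. Kdr, at 2.71 ± 0.889 FPKM in MOELOW, made up nearly all of that sum and was the 1 tested gene of 5. Pecam1, Cdh5, Tek and Tie1 were at or near 0 in both groups. Leukocyte markers summed to 64.2 to 100.8 and 28.3 to 43.0 FPKM, with Cd14 as the main part. Of 3 tested, Cd14 was lower and Csf1r higher, the latter at 0.642 and 1.61 FPKM on average. The part of these marker changes in the lower Cdkn1a and Cdkn1b and the higher Cdkn2a levels was not tested.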

How the data were processed

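Total RNA of 6 libraries was depleted of ribosomal RNA, made into strand-specific libraries and sequenced. Values are FPKM, which the authors computed with Cufflinks and Cuffdiff 2.1.1 on UCSC gene models from reads aligned by TopHat2 2.0.8b (genome mm10), and each library has a deposited table of its own. Whether the counting used strand is not given in the sources used here. No read counts were used and the depth is unknown. The tables summed to between 597486 and 770709 FPKM, and the heading of the value column in 6 of 6 tables named another passage or none, so each library was taken from its record.

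Of 23141 entries, 236 symbols had several, of which the entry with the largest mean over the libraries was used. MOEHIGH was set against MOELOW in a two-sided limma test (limma 3.58.1, R 4.3.3) with a variance trend and no block. It used log2(FPKM + 1) of the genes whose mean reached 0.5 FPKM and a Benjamini-Hochberg adjusted p of 0.05 over all 11621 of them. A fold change on this scale understates that of low genes. An exact permutation test of 3 against 3 libraries cannot go below p = 0.1 and was not used. The fit was tested on simulated data. The alternatives were 4 scalings, pseudocounts of 0.1 and 0.01, other filters, summed entries, no variance trend, an adjusted p of 0.01, a 2-fold minimum, leaving out single libraries and a replicate block. The second entry of Cdkn2b was added as an alternative after the data were seen.

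The members and lists were chosen with earlier results of these data known. Named genes were the 7 members, up to 4 called genes per list and direction whose mean reached 5 FPKM with the largest change, genes fixed by name for their role, and for each member the 3 nearest profiles. Tk1, Cdk2ap1, Tusc1 and Elavl2 were named outside this rule, after their values were seen. A few listed genes are not reported here. Gene positions came from GENCODE annotation of mm10 and promoters from RefSeq. Python 3.11.15, numpy 2.4.6, pandas 2.3.3 and matplotlib 3.10.9 were used.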

Additional observations from a re-analysis of the deposited data

How the results depend on the processing

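Cdkn1a, Cdkn1b and Cdkn2a kept their direction under all 19 alternatives run and passed in 18 of them. Tested against a 2-fold change, Cdkn1a (-1.0), Cdkn1b (-0.63) and Cdkn2a (0.70) did not pass (limma adjusted p = 1 for each), 0 inhibitor genes were called higher and 0 lower, and over all genes 303 were higher and 907 lower. The 3 calls also held with the replicate number as a block (limma adjusted p = 0.000219, 0.00292 and 0.00395), which changed no call of an inhibitor gene and gave 2967 genes higher and 3839 lower over all. Deviations from the group mean correlated at -0.02, -0.15 and 0.12 between libraries with the same number. With 3 libraries a group, these correlations cannot decide whether the numbers pair them. With quantile normalization Cdkn2d passed at 0.35, so that 2 inhibitor genes were higher, and with the second entry Cdkn2b passed at 0.95, again 2 higher. Quantile normalization moved the median of all genes from -0.05 to 0.10 and the share of higher genes among those called from 43.1% to 56.7%, and no inhibitor gene changed direction with it. With a minimum mean of 5 FPKM, 2350 of 8325 genes were lower, where fewer genes were tested.

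Leaving out 1 library at a time gave a log2 fold change of -1.16 to -0.86 for Cdkn1a, -0.73 to -0.50 for Cdkn1b, 0.52 to 0.80 for Cdkn2a, 0.09 to 0.20 for Cdkn2c and 0.20 to 0.36 for Cdkn2d, with 1 inhibitor gene higher and 2 lower each time. For Cdkn2b it was -0.0323 to 0.36, with the lowest value without passage 103. Over all genes 2203 to 3335 were higher and 3163 to 4314 lower. Counts of genes called in single lists moved by over 1.5 times in 58 cases over all alternatives. The depth is unknown, so low values such as those of Cdkn1c cannot be given a floor.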

Other observations

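Within 250 kb of Cdkn2a, a window chosen after the data were seen, the tables held Cdkn2b, Mtap and the long noncoding RNA gene Gm12603, which GENCODE names Wincr1. Gm12603, whose start lies 244 kb from Cdkn2a, was at 7.44, 11.8 and 8.31 FPKM in passages 8, 9 and 10 of MOELOW and at 54.1, 35.1 and 38.6 FPKM in passages 90, 103 and 113 of MOEHIGH. Its groups did not overlap, and its log2 fold change of 2.097 (standard error 0.21, limma adjusted p = 8.68e-05) was larger than that of Cdkn2a. In the same window around Cdkn1a, 1 of 5 tested neighbours was higher and 1 lower, and around Cdkn1b 1 of 5 was higher and 2 were lower. Around Cdkn1c 2 of 4 were higher and 1 lower, around Cdkn2c 0 of 2 were higher and 1 lower, and around Cdkn2d 5 of 13 were higher and 1 lower. Over all tested genes 24.3% were higher and 32.1% lower.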
